A study of Mus musculus with 6 samples.

Results

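Interferons are secreted proteins that cells release when they sense viral or other foreign nucleic acid. They bind receptors whose Jak kinases activate Stat2, and Stat2 joins Irf9 in the complex that binds the interferon-stimulated response element of target genes. The targets encode antiviral proteins: oligoadenylate synthetases of the Oas family, which switch on the nuclease RNase L, the RNA-binding Ifit proteins, the radical SAM enzyme viperin (Rsad2), and the Ifitm membrane proteins, which block the entry of viruses through endosomes. Ifitm genes are also expressed without infection, in the mouse in primordial germ cells among other cells.

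The values below describe 9 such genes, Oas1a, Oasl1, Ifit2, Irf9, Stat2, Rsad2, Ifitm1, Ifitm2 and Ifitm3, of 12393 genes on the arrays. They were chosen by gene symbol around Oas1a with measured differences between the groups in view, so the differences of all 9 are given as a description, with no test. Each of the 9 had a probe set that names it alone, 12 probe sets in all, with 3 for Rsad2 and 2 for Stat2, and the probe set of highest mean signal was used.

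The arrays measured total RNA of whole brains of Swiss Albino mouse embryos at stage E11.5, with 1 brain on each array. In the diabetic group were 3 malformed brains from embryos whose mothers had diabetes induced by streptozotocin, a toxin of insulin-producing cells, and in the control group 3 brains from embryos of normal mothers. Maternal diabetes and malformation lie in the same brains and cannot be told apart, and no litter is named. In whole tissue, fewer cells of a type and less RNA per cell cannot be told apart either. Diabetic and control replicates 1 and 2 are in a first value table (chip MOE430A) and replicates 3 in a second (chip Mouse430A_2), and every difference was taken within a table. P-values rest on the spread between brains of a group in the first table, since the second holds 1 brain per group. They also take in how far the group difference differs between the tables and, in limma, the spread of the other genes tested.

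Median signals were 173 to 227 on diabetic and 165 to 222 on control arrays. The signal of 18S ribosomal RNA was 150 to 234 on diabetic arrays and 101 to 265 on control replicates 2 and 3, while control replicate 1 stood apart with 7894. Of 10 listed brain markers 8 were on the arrays, and 6 of these, among them Sox2 and Tubb3, exceeded on every array the highest of 19 genes of other organs, such as the milk protein gene Csn2, which give the level of transcripts not looked for in a brain.

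The promoters of Oas1a and of the Ifitm neighbours are shown because Oas1a, Ifitm2 and Ifitm3 carry the 3 highest log2 changes of the 9 genes and Ifitm1 lies between Ifitm2 and Ifitm3 on the chromosome. The sequences are RefSeq's, build GRCm38.p6, from 120 bases before to 30 bases after the annotated start, written 5′ to 3′ on the gene's strand: Oas1a at chr5:120907496-120907645 (minus strand), Ifitm1 at chr7:140967956-140968105 (plus strand), Ifitm2 at chr7:140955932-140956081 (minus strand) and Ifitm3 at chr7:141010715-141010864 (minus strand). Capitals mark matches to GAAA, any 2 bases and GAAA again, the core of the interferon-stimulated response element.
Oas1a: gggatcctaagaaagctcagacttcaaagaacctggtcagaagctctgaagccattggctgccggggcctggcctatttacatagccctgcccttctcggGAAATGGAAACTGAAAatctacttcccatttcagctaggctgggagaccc
Ifitm1: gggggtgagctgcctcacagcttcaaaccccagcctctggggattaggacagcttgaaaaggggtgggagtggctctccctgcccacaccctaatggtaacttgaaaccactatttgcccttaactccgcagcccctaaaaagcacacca
Ifitm2: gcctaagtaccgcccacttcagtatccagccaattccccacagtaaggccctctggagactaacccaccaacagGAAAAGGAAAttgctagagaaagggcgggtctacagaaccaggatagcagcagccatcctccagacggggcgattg
Ifitm3: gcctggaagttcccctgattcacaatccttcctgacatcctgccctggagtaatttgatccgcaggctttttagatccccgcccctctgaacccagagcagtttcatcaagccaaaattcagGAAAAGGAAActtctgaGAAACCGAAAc

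Oas1a had 2 overlapping matches, at positions -20 to -11 and -14 to -5 from the start, Ifitm2 had 1 at -46 to -37, and Ifitm3 had 2 within the transcribed part, at 3 to 12 and 20 to 29. The Ifitm1 stretch had none. The motif was searched on both strands in windows from 250 bases before to 50 bases after each start, and all 9 genes matched a window by symbol, 11 windows in all. A match was found for 5 of the 9 genes, the other two being Rsad2, at -120 to -111, and Stat2, at -222 to -213, both on the opposite strand. Among all 27025 genes with a window, 3.99% held the motif, and among 100 other interferon pathway genes 41 did. A match is a description of these letters and no measured binding site.

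Oas1a, the oligoadenylate synthetase, was higher in the diabetic group, most of all in the first table. Its signals were 334, 183 and 51.4 on diabetic replicates 1 to 3, against 23.2, 47.3 and 31.1 on control replicates 1 to 3. Every diabetic array lay above the control arrays of its table, and the distance between the groups in the second table was small. The log2 change, diabetic minus control on the scale of log2(signal + 32), was 1.52 ± 0.34 (SE, n = 3 per group), with 2.08 for the first table and 0.40 for the second. No fold of plain signal is given, since the control arrays of both tables, and the diabetic array of the second, were under the level of genes of other organs given below.

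Oas1a passed the filter of a mean signal of at least 100 only through the diabetic arrays. Group means over the arrays of both tables were 190 ± 141 in the diabetic and 33.9 ± 12.3 in the control group (SD, n = 3 each). These SDs include the difference between the tables. Among all probe sets its signal stood at percentiles 59.7, 46.8 and 30.7 on diabetic replicates 1 to 3 and at percentiles 12.1, 18.9 and 25.4 on control replicates 1 to 3. The genes of other organs reached up to 272, 158 and 70.5 on diabetic replicates 1 to 3 and 150, 145 and 49.2 on control replicates 1 to 3. Oas1a exceeded that level on diabetic replicates 1 and 2, and stayed under it on diabetic replicate 3 and on all 3 control arrays. As single arrays were left out, its log2 change ran from 1.15, without diabetic replicate 1, to 2.08, without either array of the second table.

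Oas1a lies on chromosome 5 among other Oas1 genes, with Oas1g and Oas1d as protein-coding neighbours in RefSeq. These are close copies, probe sequences were not used here, and the share of a copy's transcript in the signal was not tested. Of the Oas family and RNase L, 7 other genes were on the arrays and 1, Oas1e, passed the filter. Oas1e had signals of 182, 168 and 6.004 on diabetic replicates 1 to 3 and 212, 209 and 34.0 on control replicates 1 to 3, below the controls in each table. Oas3, a larger synthetase of the family, had 136, 145 and 9.69 on diabetic and 145, 103 and 8.22 on control replicates, with overlapping groups. Oas2 had 107, 76.2 and 8.33 on diabetic and 79.6, 104 and 65.1 on control replicates. Oas1b had 89.9, 56.8 and 2.40 on diabetic and 34.7, 64.5 and 7.45 on control replicates, again overlapping in the first table. Oas3 and Oas1b were under the level of the genes of other organs on every array, and Oas2 on every array but control replicate 3. Oas1e was under that level on diabetic replicate 1 and on both arrays of the second table.

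Oasl1, a relative of the synthetases that in the mouse restrains the translation of Irf7, had signals of 217, 220 and 60.2 on diabetic replicates 1 to 3, against 177, 131 and 66.4 on control replicates 1 to 3. The diabetic arrays were the higher ones in the first table and the lower one in the second, so the tables differ in sign. The log2 change was 0.26 ± 0.18 (SE, n = 3 per group), 0.44 for the first table and -0.094 for the second, and 0.11 without control replicate 2. Its neighbour Oasl2 had 19.3, 20.1 and 13.9 on diabetic and 4.75, 9.27 and 9.55 on control replicates, above the controls in each table. All of these were far under the highest gene of other organs on their array.

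**Figure D1:**
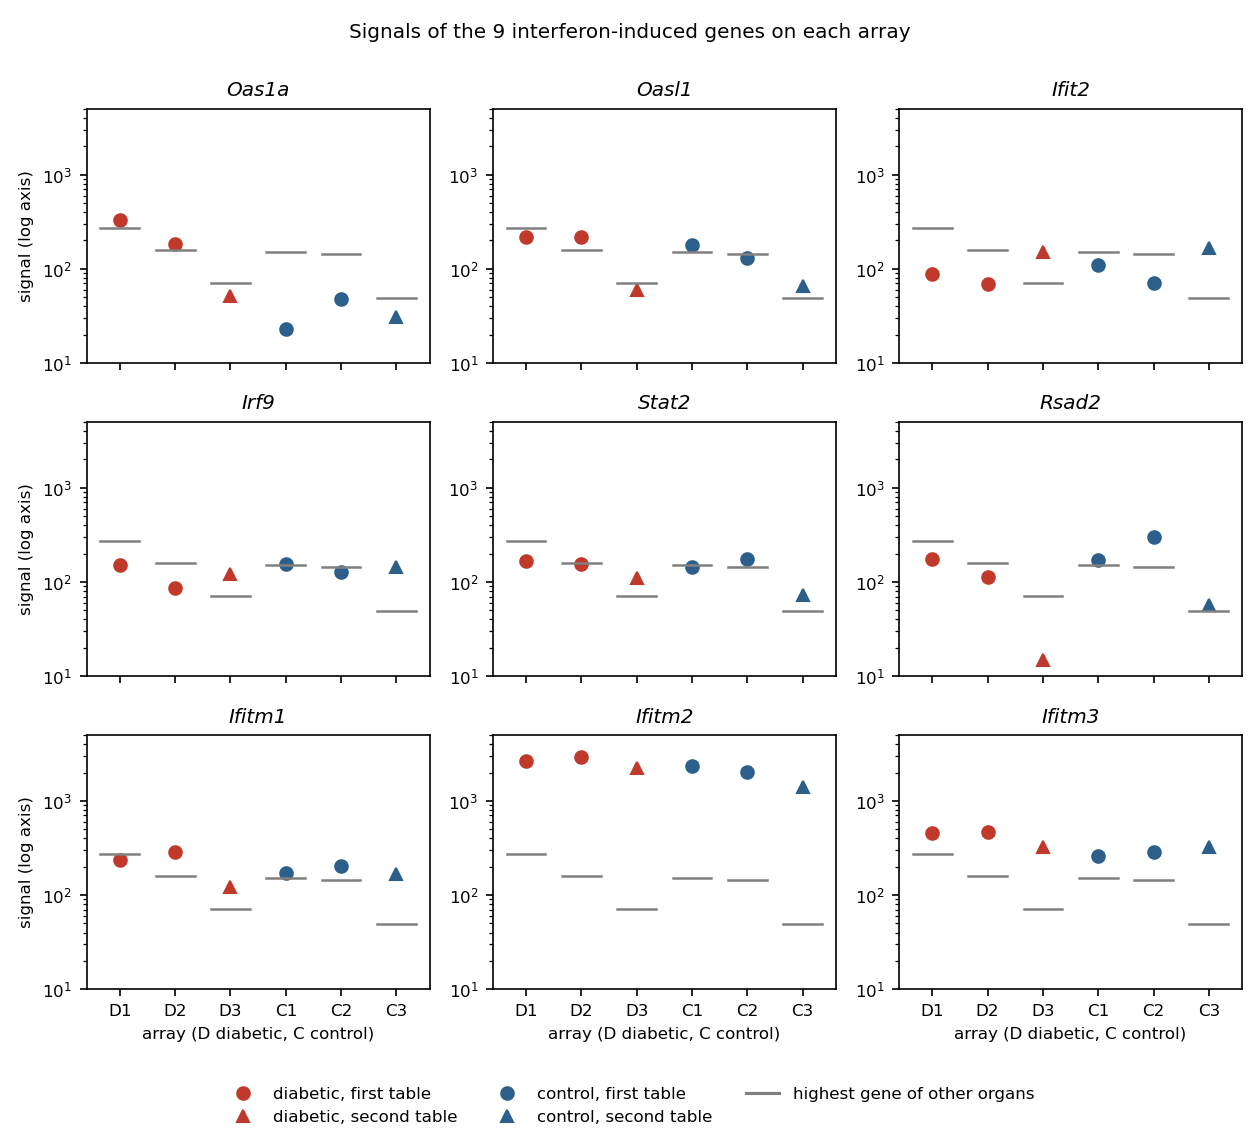
Deposited signals (log axis) of the 9 genes on the 6 arrays, diabetic (D) left and control (C) right, with circles for the first table, triangles for the second and a grey bar for the highest of 19 genes of other organs on that array. Oas1a is above its grey bar on D1 and D2 alone, while Ifitm2 and Ifitm3 are above it on every array.

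Among the Ifitm genes, Ifitm2 had its diabetic arrays above the control arrays in both tables, Ifitm3 in the first table, and Ifitm1 in the first table with the opposite order in the second. The 3 genes are neighbours on chromosome 7, in the order Ifitm2, Ifitm1, Ifitm3. Ifitm2 had signals of 2656, 2906 and 2248 on diabetic replicates 1 to 3, against 2332, 2012 and 1418 on control replicates 1 to 3. It was far above the genes of other organs on all 6 arrays, at percentiles 93.3 to 95.6 on diabetic and 88.7 to 94.3 on control arrays. Its log2 change was 0.45 ± 0.16 (SE, n = 3 per group), with 0.35 for the first table and 0.65 for the second, and 0.35 to 0.54 as single arrays were left out.

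Ifitm3 had signals of 455, 470 and 321 on diabetic replicates 1 to 3, against 262, 290 and 327 on control replicates 1 to 3. The diabetic arrays of the first table were the 2 highest of all 6, and the arrays of the second table were nearly level. The log2 change was 0.45 ± 0.18 (SE, n = 3 per group), made of 0.68 for the first table and -0.022 for the second. Ifitm1 had signals of 236, 288 and 121 on diabetic replicates and 170, 204 and 166 on control replicates. Its log2 change was 0.16 ± 0.20, with 0.43 for the first table and -0.38 for the second, and was 0.0086 without diabetic replicate 2. These proteins are close relatives, and the share of a neighbour's transcript in each signal was not tested.

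The transducers Stat2 and Irf9 showed no common direction. Stat2 had signals of 165, 154 and 110 on diabetic replicates 1 to 3, against 144, 174 and 72.2 on control replicates 1 to 3, overlapping in the first table and higher on the diabetic array in the second. Its log2 change was 0.16 ± 0.17 (SE, n = 3 per group), 0.0087 with the second table left out and 0.26 without control replicate 2. The other Stat2 probe set had 8.23, 80.2 and 53.1 on diabetic and 21.6, 10.2 and 26.2 on control replicates, each below the highest gene of other organs on its array. Irf9 had signals of 151, 85.7 and 122 on diabetic replicates 1 to 3, against 157, 129 and 144 on control replicates 1 to 3. Diabetic replicate 2 was the lowest and the groups overlapped in the first table. Its log2 change was -0.23 ± 0.19, -0.040 without diabetic replicate 2 and -0.40 without diabetic replicate 1.

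Ifit2 and Rsad2, antiviral effectors that interferon induces, had log2 changes below 0 for the probe sets used. Ifit2 had signals of 87.3, 69.1 and 151 on diabetic replicates 1 to 3, against 111, 70.8 and 166 on control replicates 1 to 3. The groups overlapped in the first table, and the log2 change was -0.13 ± 0.18 (SE, n = 3 per group), with 0.0054 without control replicate 1. Rsad2 had signals of 176, 112 and 15.0 on diabetic replicates 1 to 3, against 171, 302 and 57.6 on control replicates 1 to 3. Control replicate 2 was the highest of the 6 and diabetic replicate 3 the lowest, with overlap in the first table. Rsad2 was above the level of the genes of other organs on the 3 control arrays and on 0 of the 3 diabetic arrays, so the size of its difference is set against signals not above that level. That level itself differs between arrays, with 272 on diabetic replicate 1 against 150 on control replicate 1. On these arrays Rsad2 was nearly equal, at percentiles 43.6 and 44 of all probe sets. Its log2 change was -0.70 ± 0.23.

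The probe sets of Rsad2 differed in sign, so no direction is given for the gene. The other two had log2 changes of 0.38 ± 0.17 and -0.34 ± 0.21 (SE, n = 3 per group), with signals between 1.27 and 74.6 on diabetic and between 3.70 and 60.01 on control arrays. Cmpk2, the neighbour of Rsad2 and like it induced by interferon, had 78.0, 58.5 and 95.3 on diabetic and 120, 116 and 79.7 on control replicates. Ifit3 and Ifit1, relatives of Ifit2, had mean signals under 100 and were not tested. Ifit3 had 130, 70.6 and 25.1 on diabetic and 85.2, 68.4 and 17.8 on control replicates.

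**Figure D2:**
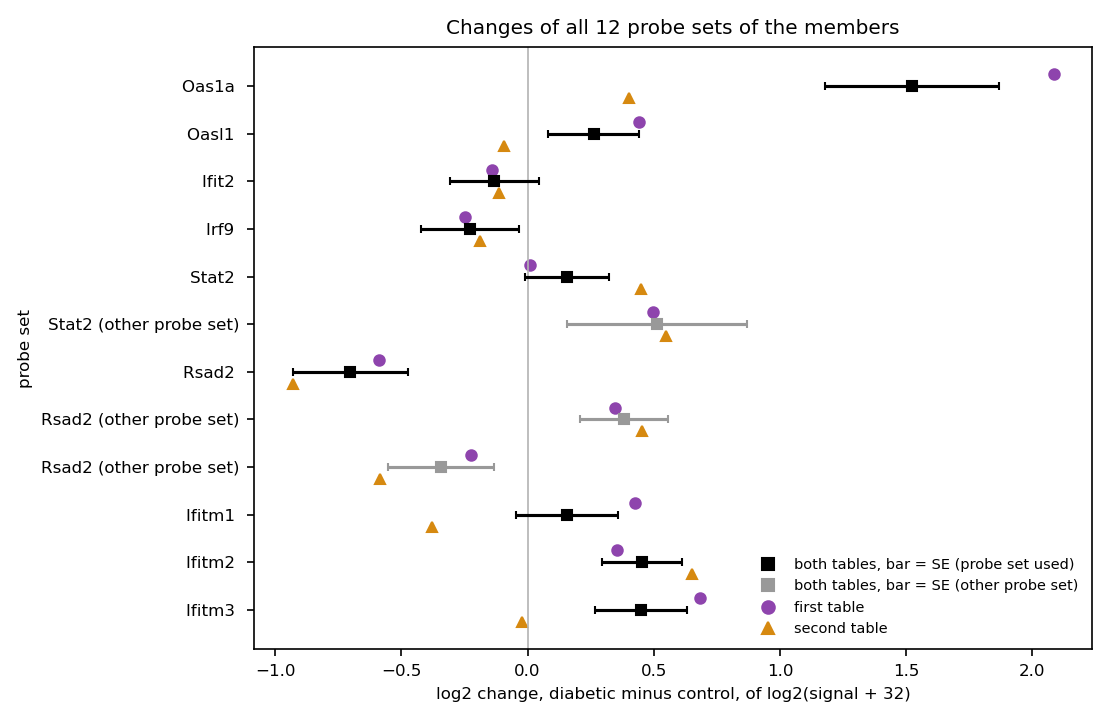
Log2 change (diabetic minus control, of log2(signal + 32)) of the 12 probe sets of the 9 genes: squares with SE bars over both tables (n = 3 per group), circles for the first table and triangles for the second. Oas1a has 2.08 and 0.40 in the tables, and Oasl1, Ifitm1 and Ifitm3 change sign between them.

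Over the 9 genes, 6 had a log2 change above 0, against 52.2% of all 8631 genes tested, and 3 below 0. The median was 0.16, against 0.012 over all genes tested. On diabetic replicates 1 to 3 the members' medians, relative to the control mean of the table, were 0.29, 0.42 and -0.094, with 7, 5 and 3 of 9 above 0. Without control replicate 1, the array with the high 18S signal, the log2 change was 1.21 for Oas1a, 0.32 for Oasl1, 0.016 for Ifitm1, 0.54 for Ifitm2 and 0.34 for Ifitm3. For Stat2 it was then 0.13, for Irf9 -0.16, for Ifit2 0.0054 and for Rsad2 -0.94, so Ifit2 alone changed sign. For 2 of the 9, Oas1a and Ifitm2, the diabetic arrays lay above the control arrays within each table, while 11.3% of all genes tested did so, and for 0 of the 9 did they lie below, against 10.7%. Limma called 0 of 8631 genes (0%) at an adjusted p under 0.05, with 655 genes (7.59%) at an unadjusted p under 0.05. The position of 7 of the 9 is limited by low signal: their mean signals were under 200, and only Ifitm2 and Ifitm3 exceeded the genes of other organs on every array.

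Other genes of the interferon pathway were taken from a list of 136 symbols, 94 of them on the arrays and 36 with a mean signal of at least 100. Of these 36 tested genes, 19 had a log2 change above 0 and 17 below, with a median of 0.033. Limma called 0 higher and 0 lower after Benjamini-Hochberg adjustment, with 1 higher and 1 lower at an unadjusted p under 0.05, against 3.72% and 3.87% of all genes. Diabetic arrays lay above the control arrays of their table for 6 and below for 3 of the 36, where 11.3% and 10.7% of all genes tested did so. Relative to the control mean, 18, 16 and 22 of the 36 were above 0 on diabetic replicates 1 to 3.

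By role, 5 of 6 tested antiviral effectors were above 0, with a median of 0.21, and 5 of 6 genes of antigen presentation, with a median of 0.16. Among receptors and kinases 2 of 8 were above 0, with a median of -0.16, among transcription factors 1 of 4 and among nucleic acid sensors and adaptors 5 of 6. Among negative regulators 0 of 3 were above 0, among GTPases 1 of 2 and of the Oas family and RNase L 0 of 1. Over all genes tested 52.2% were above 0, and with 1 to 8 genes a role these counts are a description. The genes with the highest log2 changes were Sting1, the adaptor of cytosolic DNA sensing, with 0.37 ± 0.16 (SE, n = 3 per group, adjusted p 0.656 in limma), Adar, an RNA-editing deaminase, with 0.33 ± 0.15, the GTPase gene Igtp with 0.30 ± 0.19, and Trim21, an antibody receptor of the cytosol, with 0.29 ± 0.17 and 0.043 for its other probe set. Those with the lowest were Oas1e with -0.42 ± 0.17 (adjusted p 0.648), Ifngr1, a chain of the interferon gamma receptor, with -0.39 ± 0.20, Trim30a with -0.37 ± 0.19 and 0.023 for its other probe set, and the kinase gene Tbk1 with -0.35 ± 0.19 and -0.74 for its other probe set. Without diabetic replicate 1 the log2 change was 0.17 for Igtp, 0.14 for Trim21 and -0.22 for Ifngr1, and without diabetic replicate 2 it was 0.49 for Igtp and -0.17 for Trim30a. Without control replicate 1 it was -0.17 for Tbk1, and without either array of the second table it was 0.20 for Igtp, -0.64 for Ifngr1 and -0.23 for Oas1e. Mean signals were 119 for Sting1, 143 for Igtp, 135 for Oas1e and 134.5 for Trim30a. Each of these was under the level of the genes of other organs on several arrays, while Adar, Trim21, Ifngr1 and Tbk1 exceeded it on every array.

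Signals of the interferons themselves were low. The 9 interferon genes on the arrays, among them Ifnb1 and Ifng, all fell below a mean signal of 100, and their signals ran from 1.37 to 148 over all 6 arrays. Ifnb1 had 140, 133 and 20.6 on diabetic and 117, 110 and 32.8 on control replicates, within the range of the genes of other organs on every array. Mx1, an antiviral GTPase that interferon induces, had 52.9, 52.8 and 10.7 on diabetic and 47.3, 43.7 and 11.9 on control replicates. The 4 chemokine genes of the list, Cxcl9, Cxcl10, Cxcl11 and Ccl5, were also below the filter.

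**Figure D3:**
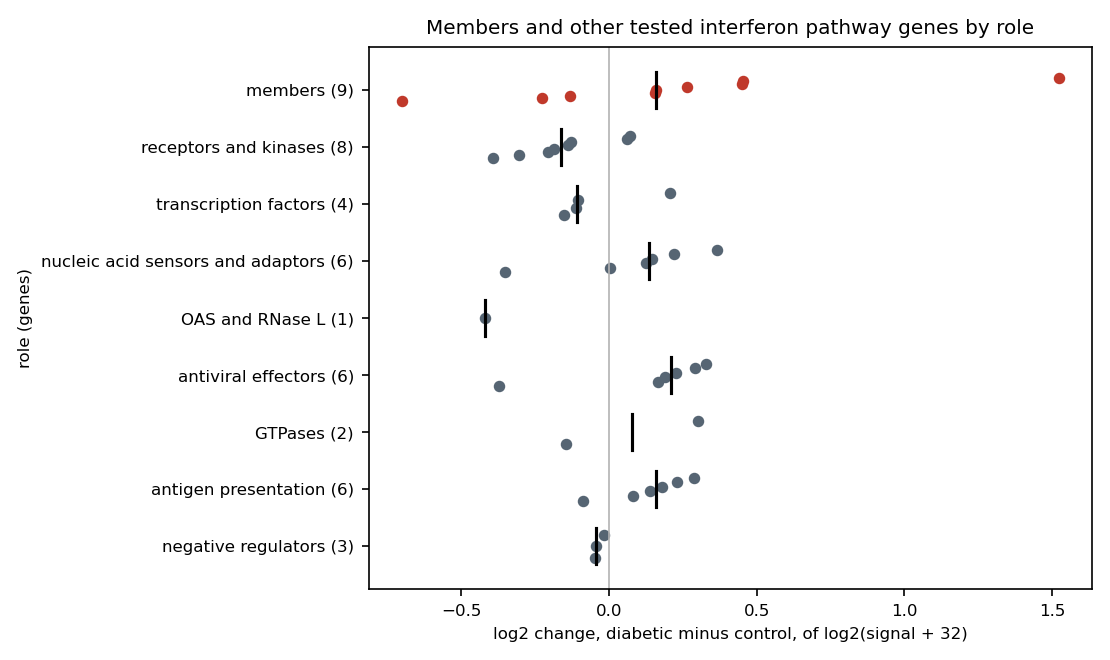
Log2 changes (diabetic minus control, of log2(signal + 32)) of the 9 members and of 36 other tested interferon pathway genes by role, 1 point per gene, with a black bar for the median. The members run from -0.70 for Rsad2 to 1.52 for Oas1a, and the other genes from -0.42 to 0.37.

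Markers of other cell types that a brain sample can hold are given beside these values. Macrophage markers, 15 of 16 on the arrays, had 6 log2 changes above 0 and 9 below, and summed signals of 1594 to 2253 on diabetic and 1519 to 2605 on control arrays. Of these 15, 8 passed the filter and 1 exceeded the highest gene of other organs on every array, so their signs and sums are limited by low signal. On every array 8 of 11 endothelial, 10 of 12 pericyte and mesenchyme and 6 of 8 erythroid markers exceeded it. Endothelial markers, 11 of 13, had 7 above 0, with sums of 3062 to 3614 on diabetic and 2297 to 3893 on control arrays. Pericyte and mesenchyme markers, 12 of 12, had 1 above 0, Cd248. Their sums were 12870, 12350 and 14820 on diabetic and 14280, 14690 and 16920 on control replicates 1 to 3, below the controls in each table. The ranges of the other lists span both tables, and in none of those lists did the diabetic sums lie on one side of the controls in both tables. Erythroid markers, 8 of 10, had 6 above 0, with sums of 49280 to 57200 on diabetic and 42730 to 51890 on control arrays. Limma called 0 genes in any of these lists, and their part in the signals of the 9 genes was not tested.

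The genes whose pattern over the 6 arrays was most like that of Oas1a were Cd248, which perivascular and mesenchymal cells express, Gdf11, a growth factor of the TGF-beta family, B230308N11Rik, Bcam, a laminin receptor, and Cacnb1, a calcium channel subunit. Their Pearson correlations with Oas1a, of log2 values less the table mean, were 0.997, 0.996, 0.994, 0.991 and 0.991 over the 6 arrays, the highest among 8630 genes. They were picked as the highest of 8630 values over 6 points, and Oas1a was under the level of the genes of other organs on 4 of the 6 arrays, so they are a description of these arrays only. Cd248 had signals of 722, 526 and 212 on diabetic replicates 1 to 3, against 201, 237 and 164 on control replicates 1 to 3. Gdf11 had 214, 174 and 37.3 on diabetic and 68.2, 94.3 and 27.2 on control replicates. Its mean signal of 102 was just above the filter, and it exceeded the level of the genes of other organs on diabetic replicate 2 alone. The 6 points share 2 tables, and centring on the table makes the 2 arrays of the second table mirror each other. With all probe sets averaged, the value of B230308N11Rik was 0.612.

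Among the members, Ifitm3 was the most like Oas1a, with a correlation of 0.945, 75th among the 8630 genes. Oasl1 had 0.704, Ifitm1 0.630 and Ifitm2 0.572. Stat2 had 0.252, and Irf9, Ifit2 and Rsad2 had -0.31, -0.39 and -0.43. Less the table mean, Oas1a was above 0 on every diabetic and below 0 on every control array. The correlations therefore largely restate each gene's own difference between the groups, mostly that of the first table, and support nothing beyond it. Oas1a also passed the filter only through its diabetic arrays.

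**Figure D4:**
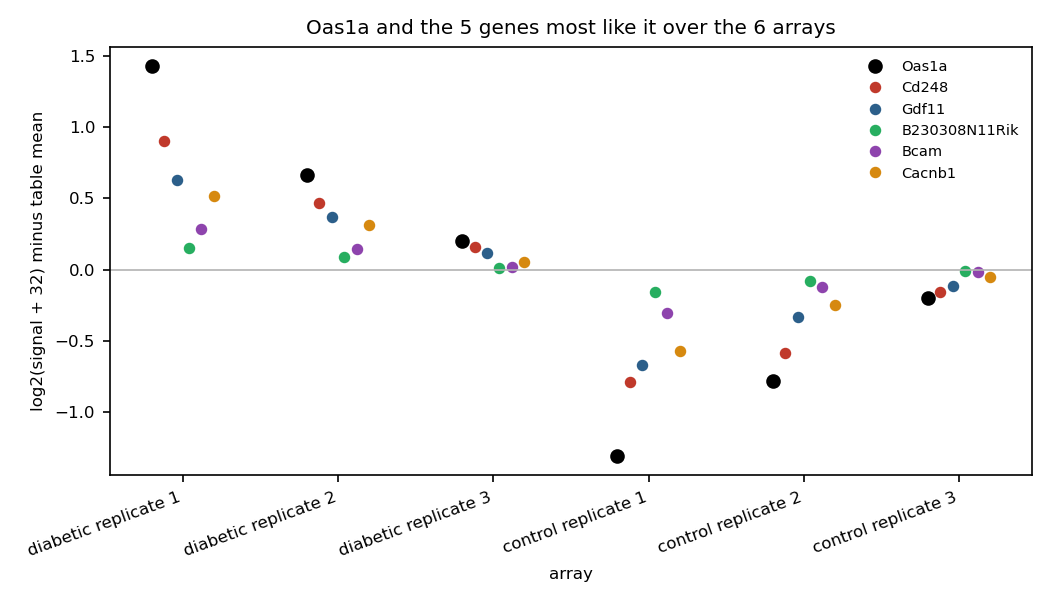
Log2(signal + 32) less the mean of the table for Oas1a (black) and the 5 genes most like it on the 6 arrays, diabetic left and control right. All 6 genes are highest on diabetic replicate 1 and lowest on control replicate 1, and the points of replicates 3 lie within 0.202 of 0.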

How the data were processed

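Affymetrix arrays of 6 mouse embryonic brains were used. The authors deposited linear intensity values per probe set, 1 column per array in 2 value tables, made with GCOS per the submitters' processing notes with an algorithm not given in the sources used here. The trimmed mean of every array was close to 500. Other deposited text files hold run settings (chip, scanner) and no expression values, per the file headers. Control probe sets (64) were left out, genes were named from the 20380 of 22690 probe sets with 1 gene, and 20351 of these matched RefSeq (GRCm38.p6), with 0 symbols changed.

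Signals were rescaled to a trimmed mean of 500 (2% off each end, a change of at most 0.0363%) for the log2(signal + 32) scale, which understates changes of low genes. Printed signals are as deposited. The probe set of highest mean signal stood for its gene. The 8631 genes with a mean of at least 100 were fitted in limma 3.58.1 (R 4.3.3; lmFit, eBayes, Benjamini-Hochberg, two-sided, threshold 0.05) with the table as a block, giving 3 residual degrees of freedom, a prior of 6.37 more and a median SE of 0.17. The number of arrays limits the precision. SEs of further probe sets come from the same model fitted over all probe sets. When the diabetic against control fit was tested on simulated data (8631 genes), 92 of 100 genes with a log2 change of 1 and 100 of 100 with 2 were called, and 18 unchanged genes. The simulated noise was normal and independent, with SDs from a fit of these data, and all changes were planted at once. These counts therefore do not show how often real changes of these sizes would be called here. In the data the smallest adjusted p in limma was 0.526.

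The 9 members, the gene lists and the tests were chosen with earlier results of these data known. Genes named in the text are the members, the 4 highest and 4 lowest tested genes of the interferon list, the 5 genes most like Oas1a, and, chosen after their values were seen, their relatives and neighbours and the interferon, Mx1, chemokine and marker genes named beside them. Alternatives changed the pseudocount, filter, normalization, block, probe set rule, array weights and arrays.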

Additional observations from a re-analysis of the deposited data

How the results depend on the processing

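Of 17 alternatives, all kept the count of called genes at 0 in limma, over all genes and in the interferon list. Genes at an unadjusted p under 0.05 numbered 655, against 97 with no table block and 416 without control replicate 1. The members' median of 0.16 was 0.452 with a minimum mean signal of 200, where only Ifitm2 and Ifitm3 were left, and between 0.13 and 0.35 with any 1 array removed. The list median of 0.033 lay between -0.015 and 0.082 with any 1 array removed, and was -0.0050 with no filter and -0.031 with a minimum of 200, so its sign is not fixed. Of 144 values of single members under the alternatives, 141 moved by less than the spread between diabetic replicates, and the other three were those of Ifit2: -0.26 without control replicate 2, 0.0054 without control replicate 1 and 0.0015 with array weights. All 131 values of the 8 named list genes kept their direction and stayed uncalled. Leaving out either array of the second table leaves the fit of the first table alone, which is also an alternative of its own, so these alternatives repeat the same values. With no table block, or with the replicate number as a block, log2 changes cannot move, since the groups are balanced in each table. The counts of 141 and 131 include all these values and overstate how far stability was tried.

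With the replicate number as a block, 0 genes were called and 633 had an unadjusted p under 0.05. The medians, which this block cannot change, were 0.16 for the members and 0.033 for the list. Deviations of same-numbered arrays correlated at 0.450, 0.430 and 0.747, but number 3 is the second table, and with the table taken out the value in the first table was -0.013, so the arrays share only a number. Low signal limits 7 of the 9 members.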
